A study of Mus musculus with 3 samples.

Results

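The cells described here were limb mesenchyme cells of the mouse forelimb bud that carried little or no Lhx2 and Lhx9 RNA, called Lhx-low cells below. They numbered 714 of the 9707 barcodes that passed the filters, out of 22501 barcodes in 3 single-cell libraries. A barcode passed with at least 2000 detected genes and under 10% mitochondrial UMIs, where a UMI (unique molecular identifier) marks 1 captured RNA molecule. Levels in a cell are given as CP10K, the UMIs of a gene or of several genes together per 10000 UMIs of that cell. A cell was taken as limb mesenchyme with Prrx1, Tbx5 and Twist1 together at 2 CP10K or more. Cells were left out where endothelial genes (Cdh5, Pecam1 and Emcn) or ectodermal genes (Epcam, Trp63 and Wnt6) reached 1 CP10K, where Gata4 and Gata6 of the lateral plate reached 1 CP10K, or where Pax3 and Lbx1 of muscle precursors reached 0.5 CP10K. Cells with UMIs in 2 or more of the p53-responsive genes Cdkn1a, Ano3, Eda2r, Trp53inp1 and Ddit4l were also left out. Of the cells that met all these conditions, those with Lhx2 and Lhx9 together under 1 CP10K were the Lhx-low cells, and the other 2432, at 1 CP10K or more, are called Lhx-high cells. The Lhx-low cells were thus chosen by the measured RNA levels of these genes. Every contrast of levels between Lhx-low and Lhx-high cells is a description without a test. Only the difference of the mutant effect between these kinds of cell was tested, further below.

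The libraries were made from forelimb buds at embryonic day 9.5. Mutant embryos were Esco2 fl/fl;Prrx1-Cre Tg/0, and control embryos were Esco2 fl/fl, so both genotypes carried the floxed Esco2 allele and only the mutants carried Cre. Esco2 encodes an acetyltransferase that acts on the cohesin ring and is needed for cohesion between sister chromatids. The Prrx1-Cre transgene is active in limb bud mesenchyme, so other cell types of a mutant bud largely keep an intact Esco2. The libraries used were mutant 1, mutant 2 and 1 control. Each came from 3 pooled samples of 2 limb buds, 6 limb buds in all, with 2 male samples and 1 female sample. The design had 3 replicates per genotype. The labels do not say whether the replicates came from separate litters, so a p-value here measures only how far these libraries spread, which may be technical.

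Limb bud mesenchyme is patterned along an axis from the shoulder to the fingers. Meis1 and Meis2 are homeodomain transcription factors of the TALE class that are kept on near the body wall, where retinoic acid signals, and are switched off distally under FGF signals. Lhx2 and Lhx9 are LIM-homeodomain transcription factors of the distal and subridge mesenchyme, where they act in the response to FGF signals from the apical ectodermal ridge. Cells with limb field genes but little Lhx2 or Lhx9 are therefore candidates for proximal mesenchyme.

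There were 196 Lhx-low cells in mutant 1, 275 in mutant 2 and 243 in the control, with 8335451, 12752654 and 13026495 UMIs in that order. The median cell held 31344.5 UMIs in mutant 1, 48733 in mutant 2 and 35227 in the control, and 6470, 7136 and 5788 detected genes. Median mitochondrial shares were 2.84%, 2.01% and 1.83%. Hemoglobin genes, which mark erythroid cells, took 8613 and 4447 CPM (a gene's share of all UMIs summed over the cells, on the usual CPM scale) in the mutants and 3442 CPM in the control. Scrublet called 3, 2 and 1 of these cells doublets, and they were kept. Between 65 and 117 barcodes were shared by any 2 libraries, and none of them was an Lhx-low cell in both. Xist, the RNA that coats the inactive X chromosome of female cells, had a UMI in 4.08% and 3.27% of mutant Lhx-low cells, against 13.2% of control Lhx-low cells. A Y-linked UMI without Xist was found in 93.9% and 87.3% of the mutant cells and 73.3% of the control cells. The libraries thus differed in the sexes of their cells, although the labels describe the same sex balance in each.

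Lhx-low cells made up 6.52% of filtered barcodes in mutant 1 (exact 95% Clopper-Pearson interval 5.66% to 7.46%), 6.66% in mutant 2 (5.92% to 7.47%) and 9.45% in the control (8.35% to 10.6%). Both mutant shares lay below the control share, and the mean of the mutants was 2.86 percentage points lower. No test was made, since an exact permutation of 2 mutant libraries against 1 control cannot give a p below 0.333. The intervals cover counting error alone. The difference had no stable sign under a stricter gate: with Prrx1, Tbx5 and Twist1 together at 5 CP10K or more, the shares were 5.15% and 4.84% in the mutants and 4.90% in the control. Without the condition on p53-responsive genes the shares were 8.11% and 8.16% in the mutants and 9.68% in the control. As a share of Lhx-low and Lhx-high cells together, Lhx-low cells were 25.7% in mutant 1, 17.2% in mutant 2 and 31.0% in the control.

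The condition on p53-responsive genes removed more cells in the mutants. Of the cells that met every other condition for Lhx-low, it set aside 48 of 244 in mutant 1 (19.7%, 95% interval 14.9% to 25.2%) and 62 of 337 in mutant 2 (18.4%, 14.4% to 23.0%), against 6 of 249 in the control (2.41%, 0.889% to 5.17%). Among Lhx-high cells it set aside 18.0% and 15.7% in the mutants and 1.46% in the control. In both kinds of cell the shares of the mutant libraries lay close together and apart from the control share. The Lhx-low cells below are thus those with UMIs in at most 1 of these 5 genes. Of those kept, 16.8% in mutant 1, 21.5% in mutant 2 and 13.2% in the control had UMIs in 1 of them. The condition depends on depth and does not show that a p53 program was absent. The 5 genes themselves are given no comparison.

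The 5 markers named with the proximal label were not read by the gates, but were chosen with earlier results of these data known. Their levels describe the cells and are no independent check of the label. Meis2 stood at 1662 and 1277 CPM in the Lhx-low cells of mutant 1 and mutant 2 and at 1212 CPM in those of the control. In Lhx-high cells it stood at 968, 593 and 664 CPM in the same libraries. Meis1 stood at 539, 406 and 380 CPM in Lhx-low cells, against 392.4, 247 and 274 CPM in Lhx-high cells. Within each library both Meis genes were higher in Lhx-low cells, by 0.78, 1.10 and 0.86 on the log2 scale for Meis2 and by 0.45, 0.71 and 0.47 for Meis1, with 5 CPM added to each level. Ptn, which encodes the secreted growth factor pleiotrophin, had 2508, 2608 and 1917 CPM in Lhx-low cells and 1053, 897 and 805 CPM in Lhx-high cells. Unc5c, a receptor for netrin, had 808, 513 and 647 CPM in Lhx-low cells and 290, 135 and 311 CPM in Lhx-high cells. The widest gap among the markers was that of Ndnf, a secreted protein first described as a neurotrophic factor, with 129, 89.5 and 121 CPM in Lhx-low cells and 29.8, 11.5 and 35.4 CPM in Lhx-high cells. Its log2 ratio was 1.95, 2.52 and 1.64. All 5 markers were thus higher in Lhx-low cells of all 3 libraries, while the range of the ratios, from 0.45 to 2.52, shows that the Meis genes were shared with Lhx-high cells to a good degree.

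**Figure D1:**
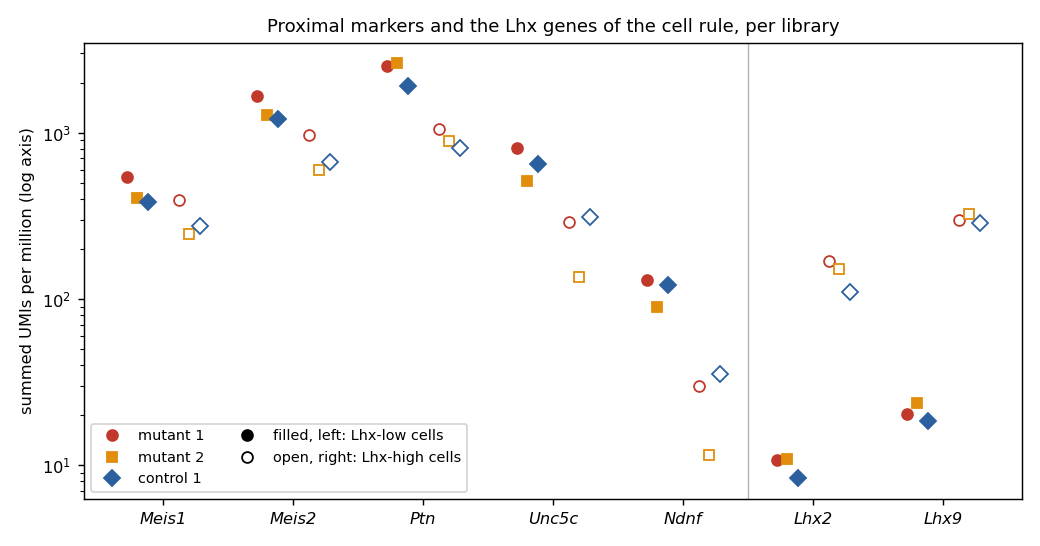
Levels of the 5 proximal markers, and of Lhx2 and Lhx9, which the gates read, in CPM (log axis), each point 1 library sum, with Lhx-low cells left of Lhx-high cells and mutant libraries left of the control. In every library each proximal marker lies higher in Lhx-low cells, with Meis2 at 1212 to 1662 CPM against 593 to 968 CPM.

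The promoter of Meis2, the most abundant transcription factor among these markers, is printed first below. The gates did not read Meis2. Its promoter is followed by those of Shox2 and Msx2, a pair of homeodomain genes outside the Hox clusters that were called between the genotypes further on. Each window runs 5′ to 3′ on the strand of its gene from 250 bases before to 50 bases after the annotated start (RefSeq, GRCm38.p6). Capitals mark matches to TAATTA, the core read by many homeodomain proteins, LIM-homeodomain and Msx proteins among them. TGACAG, the core bound by Meis proteins, was also searched, on both strands, and TAATTA is its own reverse complement.
Meis2, chr2:116064570-116064869, minus strand: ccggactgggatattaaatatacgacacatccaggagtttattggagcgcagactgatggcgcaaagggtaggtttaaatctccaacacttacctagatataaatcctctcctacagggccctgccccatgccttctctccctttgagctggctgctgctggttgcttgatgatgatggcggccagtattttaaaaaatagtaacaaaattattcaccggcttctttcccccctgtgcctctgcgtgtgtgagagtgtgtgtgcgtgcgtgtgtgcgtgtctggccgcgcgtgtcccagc
Shox2, chr3:66981722-66982021, minus strand: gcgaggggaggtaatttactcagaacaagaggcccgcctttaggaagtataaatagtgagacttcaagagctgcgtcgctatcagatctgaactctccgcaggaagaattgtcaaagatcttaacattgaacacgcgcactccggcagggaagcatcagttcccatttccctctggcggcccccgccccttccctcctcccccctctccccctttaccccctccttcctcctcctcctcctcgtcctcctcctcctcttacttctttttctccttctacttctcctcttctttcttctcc
Msx2, chr13:53472731-53473030, minus strand: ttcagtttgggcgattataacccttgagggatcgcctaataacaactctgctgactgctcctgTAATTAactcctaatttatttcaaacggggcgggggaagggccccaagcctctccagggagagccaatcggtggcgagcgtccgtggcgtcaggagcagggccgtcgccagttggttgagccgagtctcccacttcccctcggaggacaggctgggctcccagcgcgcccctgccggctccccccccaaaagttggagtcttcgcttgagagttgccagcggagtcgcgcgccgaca
The Msx2 window held 1 TAATTA, starting at base 64 of the 300 printed, and no TGACAG. The windows of Meis2 and Shox2 held neither word. Of 32851 RefSeq promoters of the same length, 1738 (5.29%) held TAATTA and 6300 (19.2%) held TGACAG. A match in such a window is a description of the letters and says nothing on binding.

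Levels varied widely from cell to cell. Meis1 and Meis2 together had a median of 23.3 CP10K over the Lhx-low cells of mutant 1, 14.1 in mutant 2 and 9.41 in the control, against 12.5, 6.65 and 5.50 CP10K over Lhx-high cells. The range from the lower to the upper quartile of the Lhx-low cells was 13.9 to 38.1 CP10K in mutant 1, 7.98 to 23.7 in mutant 2 and 3.59 to 19.1 in the control. The median of Ptn was 25, 23.4 and 13.2 CP10K in Lhx-low cells and 7.49, 6.22 and 4.18 CP10K in Lhx-high cells. The 10% quantile of the Meis genes was 8.0 CP10K in mutant 1, 4.18 in mutant 2 and 1.74 in the control, and that of Ptn 6.41, 5.64 and 0.705 CP10K. A larger part of the control cells thus had little of these genes. When every cell was reduced at random to 5000 UMIs, Meis1 was detected in 82.5% of Lhx-low cells of mutant 1, 70.1% of mutant 2 and 60% of the control, against 97.4%, 92.4% and 78.6% at full depth. Erythroid cells, taken here as the background, whose median depths were 67412, 61418 and 100032 UMIs, had a thinned Meis1 share of 2.59%, 1.77% and 2.28%. The per-cell medians of the Meis genes and Ptn and the share with Meis1 were higher in both mutants than in the control. The summed levels differed less, and the fits below called none of the 5 markers, with log2 folds of mutant over control of 0.25 for Meis1, 0.22 for Meis2, 0.36 for Ptn, -0.04 for Unc5c and -0.21 for Ndnf.

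**Figure D2:**
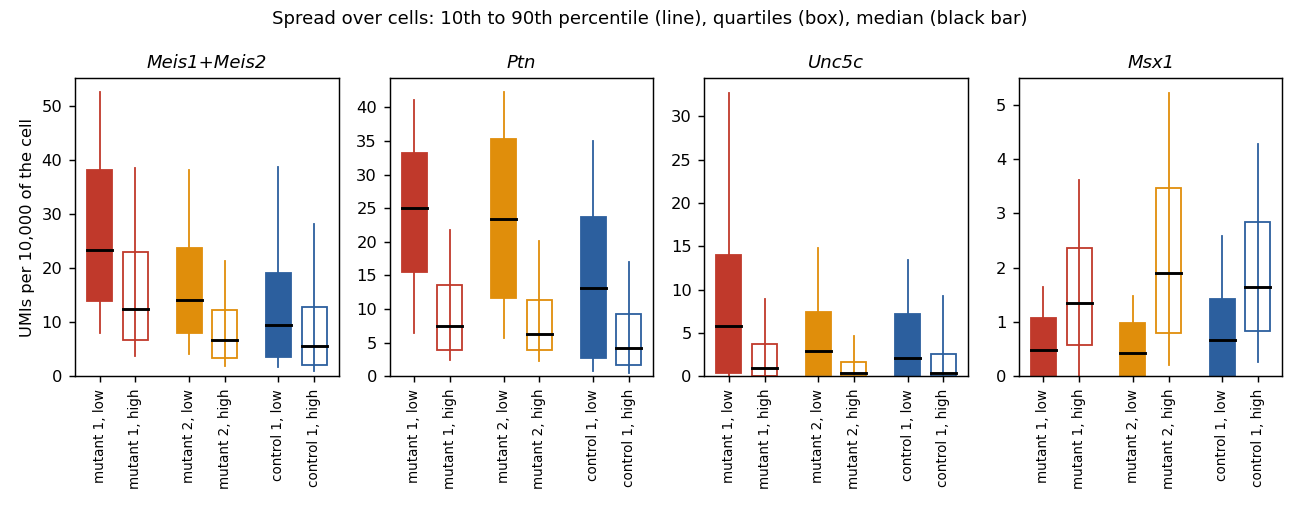
Per-cell levels in CP10K of Meis1 and Meis2 together, Ptn, Unc5c and Msx1 in Lhx-low and Lhx-high cells of each library, with the median, the quartiles and the 10% and 90% quantiles of cells. The Meis medians of Lhx-low cells are 23.3 and 14.1 CP10K in the mutants and 9.41 CP10K in the control.

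The limit of 1 CP10K did not fall at a gap. No UMI of Lhx2 or Lhx9 at all was found in 49.0% of the Lhx-low cells of mutant 1, 44.0% of those of mutant 2 and 52.7% of those of the control. Just inside the limit, at 0.8 to under 1 CP10K, the Meis genes had a median of 22.9 CP10K over 25 cells of mutant 1, 13.9 over 28 cells of mutant 2 and 8.0 over 27 cells of the control. Just outside, at 1 to under 1.2 CP10K, the medians were 14.6 CP10K over 15 cells, 13.5 over 33 cells and 4.32 over 22 cells. The Meis medians on either side of the limit thus lay apart in mutant 1 and the control and close together in mutant 2. Ptn had medians of 27.2, 15.9 and 10.8 CP10K just inside the limit and 9.68, 16.3 and 5.73 CP10K just outside it, and Unc5c had 4.38, 2.34 and 0.440 CP10K inside and 2.78, 1.44 and 0.133 CP10K outside.

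Markers of neighbouring tissues mostly had low sums, some of them above those of Lhx-high cells. The 10 distal markers, Lhx2 and Lhx9 among them, summed to 314 and 229 CPM in mutant Lhx-low cells and 316 CPM in control ones, against 956, 979 and 914 CPM in Lhx-high cells. The 8 of them other than Lhx2 and Lhx9, which chose the cells, summed to 283, 194 and 289 CPM in Lhx-low cells and 487, 503 and 519 CPM in Lhx-high cells. Fgf10, the mesenchymal FGF that maintains the apical ridge, kept 164, 103 and 125 CPM in Lhx-low cells, and Hoxa13, a gene of the later hand plate, was at 0. The 9 markers of flank and visceral lateral plate summed to 165 and 162 CPM in the mutants and 161 CPM in the control, against 82.8, 85.4 and 85.7 CPM of Lhx-high cells. The gene with the highest level among them was Bmp4, a ligand also made by limb mesenchyme, with 104 and 126 CPM in the mutants and 77.2 CPM in the control. The 7 flank markers other than Bmp4 and Hand1 summed to 52.3 and 33.6 CPM in the mutants and 58.0 CPM in the control. In Lhx-high cells these markers summed to 14.7 and 8.63 CPM in the mutants and 17.85 CPM in the control. Gata4 and Gata6, which the gates held under a limit in both kinds of cell, are among them. Nkx2-5, a defining heart gene, was at 0, and Isl1, Foxf1 and Tbx20 stayed at or under 1.46 CPM. The 7 coelomic epithelium markers summed to 101, 50.0 and 78.6 CPM in Lhx-low cells and at most 7.62 CPM in Lhx-high cells, and the 5 intermediate mesoderm markers to 31.7, 21.5 and 15.9 CPM and at most 6.01 CPM. These 3 lists of trunk tissues were thus higher in Lhx-low than in Lhx-high cells of every library. Endothelial, ectodermal, myogenic and macrophage lists each summed to at most 26.2 CPM in Lhx-low cells. The gates read genes of the endothelial, ectodermal and myogenic lists, so the low sums of those lists partly follow from the choice of cells. The neural tube list, which no gate reads, summed to 31.1, 24.5 and 24.8 CPM in Lhx-low cells. In Lhx-high cells it summed to 52.8, 42.6 and 46.1 CPM.

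Among genes averaging 20 CPM or more over the 6 sums, the 10 with the highest ratio of Lhx-low over Lhx-high cells in all 3 libraries were of varied kinds. Kcnh7, a voltage-gated potassium channel subunit, had 541, 267 and 534 CPM in Lhx-low cells of mutant 1, mutant 2 and the control, against 51.6, 23.7 and 43.3 CPM in Lhx-high cells. Ppp2r2b, a regulatory subunit of protein phosphatase PP2A, had 187, 73.2 and 169 CPM against 5.80, 3.58 and 5.70 CPM. Both were lower in mutant 2 than in the other 2 libraries, in Lhx-low and Lhx-high cells alike. Igfbp5, which binds insulin-like growth factors, had 102, 91.6 and 86.4 CPM against 11.7, 6.75 and 7.97 CPM. Sfrp1, a secreted inhibitor of WNT, had 173, 90.6 and 97.6 CPM against 29.5, 13.3 and 16.8 CPM, and Dlk1, a paternally expressed Notch ligand-like protein, had 476, 423 and 446 CPM against 137, 99.8 and 130 CPM. The other 5 genes were Sparc and Tnc of the extracellular matrix, Runx1t1, a transcriptional corepressor, Shroom3, a regulator of apical actin, and Plxna2, a semaphorin receptor. Their log2 ratios ran from 1.75 to 2.89. None of these 10 genes was called between mutant and control Lhx-low cells.

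In the other direction the 10 genes were Tbx15, Hoxa10, Hoxd10, Sall3, Tfap2c, Cped1, Nnat, Vegfd, Socs2 and 2600014E21Rik. Hoxa10 and Hoxd10 belong to the 5′ Hox genes that are switched on as the bud grows out. Hoxa10 had 3.60, 8.86 and 0.998 CPM in Lhx-low cells and 52.4, 67.0 and 30.2 CPM in Lhx-high cells. Tfap2c, a transcription factor of the AP-2 family, had 5.76, 13.0 and 4.61 CPM against 59.4, 69.0 and 55.0 CPM. Nnat, an imprinted gene, stayed abundant in Lhx-low cells at 208, 316 and 175 CPM, against 731, 1062 and 570 CPM. The same contrast over pathway lists showed HoxB and HoxC genes higher in Lhx-low cells, with 11 of 14 higher in all 3 libraries and 0 lower, and genes of FGF signalling lower, with 12 of 14 lower and 1 higher. Of the distal outgrowth list, 10 of 15 were lower in all 3 libraries and 2 higher, and of guidance and neurite growth genes 19 of 28 were higher and 7 lower. Over all 10053 genes in this contrast that the gates had not read, 2663 were higher and 2997 lower in all 3 libraries.

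**Figure D3:**
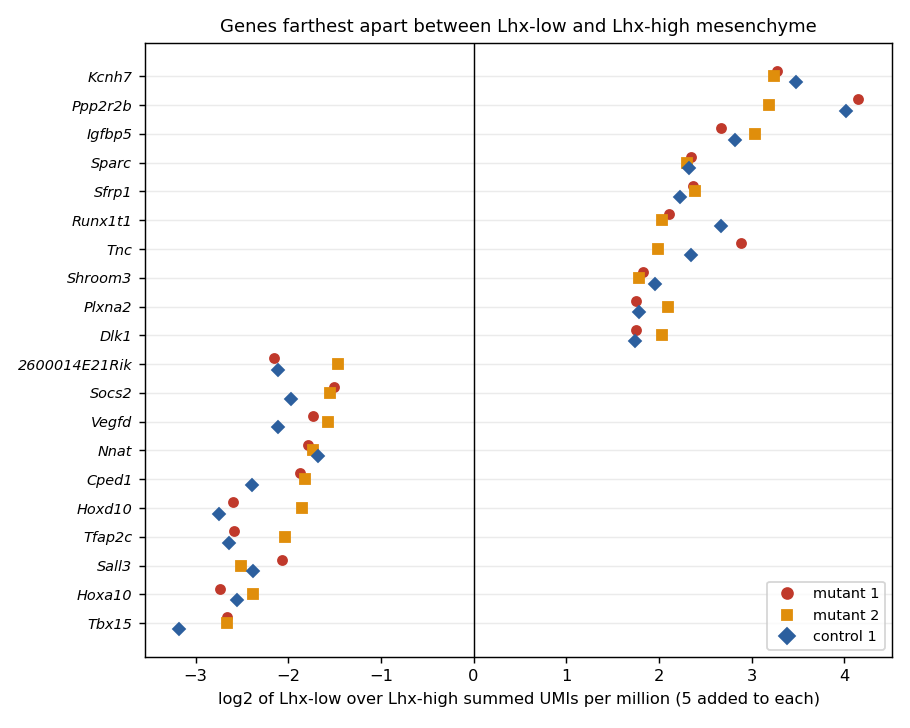
Log2 ratio of Lhx-low over Lhx-high cells (5 CPM added) in each of the 3 libraries, for the 10 genes with the highest and the 10 with the lowest ratios. The 3 libraries lie together for most genes, as for Sparc at 2.34, 2.30 and 2.33.

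The main comparison asked which genes of the Lhx-low cells differed between Esco2 mutant and control buds. UMIs were summed per library, and edgeR's quasi-likelihood test with Benjamini-Hochberg adjustment called 30 of 10140 genes (0.296%), 11 higher in the mutants (0.108%) and 19 lower (0.187%). The transcription factor genes Tbx15, Hoxd10, Shox2 and Prdm16 rose, as did the growth factor genes Igf1 and Nrg1. The transcription factor genes Hand1, Msx2 and Hoxb1 fell, as did Acta2, Sparcl1 and Gal. The test rests on 1 residual degree of freedom, from the 2 mutant libraries, and takes the single control library to vary like them. In it every gene took the spread shared by all genes, with no weight on its own spread (infinite prior degrees of freedom). With that prior held at 4 degrees of freedom, 0 genes were called and 103 had an unadjusted p under 0.05, against 284 in the fit as made. DESeq2's Wald test called 5 genes, Hbb-bt, Eif3j2, Tbx15, Gm10036 and Xist. The calls below stand on that assumption.

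Esco2 itself (ENSMUSG00000022034, chromosome 14, 65819038 to 65833994) had 18.6 and 20.2 CPM in mutant Lhx-low cells and 29.3 CPM in control ones. The mutants were lower by a log2 fold of -0.65 (SE 0.32), which was not called (edgeR adjusted p = 1). Reads from the 3′ end do not measure whether the floxed part was deleted. At 5000 UMIs a cell, Esco2 was detected in 8.25% and 11.4% of mutant Lhx-low cells and 11.1% of control ones, and in erythroid cells, which divide and express it, in 12.1% and 12.4% of the mutants and 11.9% of the control. The feature for the Cre transgene had UMIs in 6 of 196 and 8 of 275 mutant Lhx-low cells (3.06% and 2.91%), against 0 of 243 control ones. In Lhx-high cells, whose median depth was higher, it had UMIs in 5.81% and 6.95% of mutant cells and 0% of control cells.

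Tbx15 (ENSMUSG00000027868, chromosome 3, 99240381 to 99354259), a T-box factor needed for the shoulder blade and other bones, had 19.3 and 23.2 CPM in the Lhx-low cells of the mutants and 3.30 CPM in those of the control. Both mutants lay far above the control, with a log2 fold of 2.64 (SE 0.41, edgeR adjusted p = 1.59e-07). UMIs of Tbx15 were found in 39 and 65 mutant cells and 15 control cells, and 5 control cells held 67.4% of the control's UMIs. Its fold lay between 1.83 and 3.31 under the other settings tried, and 1 setting, the limited shared spread, ended its call. Lhx-high cells had more of it in all libraries, with 148 and 174 CPM in the mutants and 70.1 CPM in the control. The mutant effect on Tbx15 was larger in Lhx-low cells, by 1.49 on the log2 scale (SE 0.21, edgeR adjusted p = 0.000143 for the interaction).

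Shox2 (ENSMUSG00000027833, chromosome 3, 66971727 to 66981771), a homeodomain factor needed for the humerus and femur, had 12.2 and 33.2 CPM in the mutants and 6.6 CPM in the control. Its promoter window, printed above, held neither TAATTA nor TGACAG, like that of Meis2. Mutant 2 stood well above mutant 1, and the log2 fold was 1.76 (SE 0.37, edgeR adjusted p = 0.00156). The fold was 2.24 with mutant 2 alone and 0.74 with mutant 1 alone, so mutant 2 carried most of it. It fell to 1.04 and was no longer called (edgeR adjusted p = 1) among cells with 0 UMIs of Gata4 and Gata6. At 5000 UMIs a cell, Shox2 was detected in 6.70% (95% interval 3.62% to 11.2%) and 12.2% (8.53% to 16.7%) of mutant Lhx-low cells and in 3.83% (1.77% to 7.15%) of control ones, against 19.4%, 36.7% and 17.3% at full depth. Erythroid cells had at most 0.162% after thinning. The intervals cover counting error over cells alone and give no comparison of the genotypes. Lhx-high cells had Shox2 more often in every library, at 55.3%, 65.4% and 39.2% of cells at full depth. After thinning, the Lhx-high shares were 19.3% and 20.6% in the mutants and 11.1% in the control.

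Hoxd10 (ENSMUSG00000050368, chromosome 2, 74691924 to 74695105) had 8.28 and 27.2 CPM in the mutants and 4.68 CPM in the control, with a log2 fold of 1.91 (SE 0.39, edgeR adjusted p = 0.00072). Here too mutant 2 was the higher of the mutants, with a log2 ratio to the control of 2.42, against 0.76 for mutant 1 (0.5 CPM added). The mutant effect on Hoxd10 was larger in Lhx-low than in Lhx-high cells by 1.29 (SE 0.31, edgeR adjusted p = 0.036). Prdm16, a regulator with a methyltransferase domain that acts in fat and craniofacial tissue, had 43.9 and 61.1 CPM in the mutants and 18.8 CPM in the control, a log2 fold of 1.44 (edgeR adjusted p = 0.0478) whose call was lost in 10 of 20 other settings. Igf1, the insulin-like growth factor, had 12 and 10.4 CPM in the mutants and 2.69 CPM in the control, and the mutants lay close together. Its log2 fold was 1.99 (SE 0.45, edgeR adjusted p = 0.00465). Nrg1, a ligand of ErbB receptors, had 12 and 38.6 CPM in the mutants and 8.37 CPM in the control, and 5 cells of mutant 1 held 74.0% of that library's UMIs and 5 of mutant 2 held 57.5%. Its log2 ratio to the control was 0.49 for mutant 1 and 2.14 for mutant 2. Ntng1, a membrane-anchored netrin-G, had 34.9 and 27.8 CPM in the mutants and 10.7 CPM in the control (log2 fold 1.49, edgeR adjusted p = 0.0123).

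The remaining calls on the higher side were Hbb-bt, Eif3j2, C130021I20Rik and F630040K05Rik. Hbb-bt is an adult beta-globin gene. Its value is uncertain, since 63.7% of the 60-base words in the last 500 bases of its transcript occur in other genes. Hbb-bt had 95.9% and 96.5% of its UMIs in 5 cells of each mutant. It had 17.6 and 22.1 CPM in the mutants and 2.30 CPM in the control (log2 fold 3.06, edgeR adjusted p = 1.89e-09). The summed hemoglobin genes given above were also higher in both mutants, and their part in this call was not tested. C130021I20Rik had 12.2 and 25.3 CPM in the mutants and 5.91 CPM in the control (log2 fold 1.64, edgeR adjusted p = 0.00663, with 0.99 for mutant 1 and 2.01 for mutant 2). Eif3j2, a copy of the translation factor gene Eif3j, had 70.2 and 75.4 CPM in the mutants and 10.1 CPM in the control, and Lhx-high cells had 79.8, 81.1 and 17.5 CPM. Its value is uncertain, since 86.4% of the 60-base words in the last 500 bases of its transcript occur in other genes. F630040K05Rik had 18.8 CPM in mutant 1, 1.10 CPM in mutant 2 and 1.92 CPM in the control, so the mutants lay on both sides of the control.

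**Figure D4:**
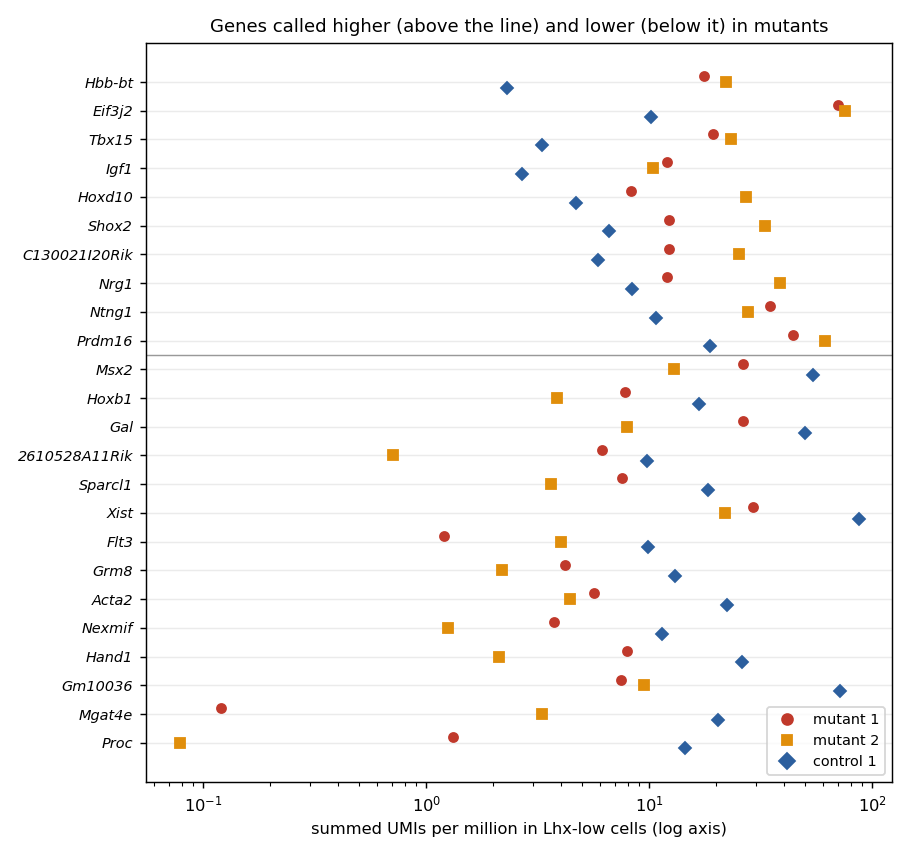
Levels in CPM (log axis) of 24 of the 30 genes called by edgeR in Lhx-low cells, 10 higher in the mutants above the line and 14 lower below it, with 1 point for each library sum. Tbx15 has 19.3 and 23.2 CPM in the mutants and 3.30 CPM in the control, and Hand1 has 7.92 and 2.12 CPM in the mutants and 26.2 CPM in the control.

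Hand1 (ENSMUSG00000037335, chromosome 11, 57828705 to 57832818), a basic helix-loop-helix factor of the heart and lateral plate, fell to 7.92 and 2.12 CPM in mutant Lhx-low cells, against 26.2 CPM in control ones. The log2 fold was -2.51 (SE 0.35, edgeR adjusted p = 1.17e-09), and both mutants lay below the control. At 5000 UMIs a cell, Hand1 was detected in 3.09% (95% interval 1.14% to 6.61%) and 0.738% (0.0895% to 2.64%) of mutant cells and in 8.51% (5.28% to 12.8%) of control cells, against 12.2%, 4.73% and 24.3% at full depth and 0% of thinned erythroid cells. Lhx-high cells had 1.05, 0.853 and 1.23 CPM, so little of it was found there. It was no longer called among cells with Foxf1 and Hand1 together under 1 CP10K (log2 fold -1.47, edgeR adjusted p = 0.214), a setting that reads Hand1 itself. On the scale with 0.5 CPM added, mutant 1 lay at -1.66 and mutant 2 at -3.35 relative to the control. The flank markers, given above, had nearly equal sums in the genotypes only with Bmp4, which was higher in the mutants, and 3 others were lower in them. Foxf1 had 0.720 and 0.157 CPM in the mutants and 1.15 CPM in the control, Isl1 0.960 and 0.706 CPM in the mutants and 1.46 CPM in the control, and Gata6, which the gates read, 33.6 and 22.4 CPM in the mutants and 38.4 CPM in the control. The part of such cells in the fall of Hand1 was not tested. Acta2, the smooth muscle actin, fell to 5.64 and 4.39 CPM in the mutants, against 22.3 CPM in the control (log2 fold -2.22, edgeR adjusted p = 4.55e-07). In the control, 5 cells held 80.0% of its UMIs.

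Msx2 (ENSMUSG00000021469, chromosome 13, 53466884 to 53473074), a homeodomain factor downstream of BMP signals whose promoter window holds the TAATTA printed above, fell to 26.3 and 12.9 CPM in mutant Lhx-low cells, against 54.3 CPM in control ones. The log2 fold was -1.55 (SE 0.32, edgeR adjusted p = 0.00118), with mutant 1 at -1.03 and mutant 2 at -2.04. It was detected at 5000 UMIs in 9.79% (95% interval 6.00% to 14.9%) and 6.64% (3.98% to 10.3%) of mutant cells and 20% (15.1% to 25.7%) of control cells. At full depth the shares were 40.3%, 34.9% and 56.0%. The intervals cover counting error over cells alone and give no comparison of the genotypes. Thinned erythroid cells had 0.808%, 0.221% and 0%. Lhx-high cells had 20.8 and 32.2 CPM in the mutants and 39.2 CPM in the control. The call was lost with the stricter limb gate (log2 fold -1.14, edgeR adjusted p = 0.0924) and among cells with 0 UMIs of Gata4 and Gata6 (log2 fold -1.57, edgeR adjusted p = 0.197). Hoxb1 (ENSMUSG00000018973, chromosome 11, 96365752 to 96368256), a 3′ Hox gene, fell to 7.80 and 3.84 CPM in the mutants, against 16.7 CPM in the control (log2 fold -1.62, SE 0.37, edgeR adjusted p = 0.00488). The log2 ratio to the control was -1.05 for mutant 1 and -1.99 for mutant 2. Lhx-high cells had 3.11 and 1.49 CPM of Hoxb1 in the mutants and 6.62 CPM in the control.

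Gal, the neuropeptide galanin, had 26.4 and 7.92 CPM in the mutants and 49.8 CPM in the control (log2 fold -1.64, edgeR adjusted p = 0.000314). Sparcl1, a matrix glycoprotein, had 7.56 and 3.61 CPM in the mutants and 18.4 CPM in the control (log2 fold -1.82, edgeR adjusted p = 0.000401). Mutant 2 was the lower of the mutants in both, with Gal at -2.58 and Sparcl1 at -2.20 in log2 ratio to the control, against -0.90 and -1.23 in mutant 1. For both genes Lhx-high cells were lower still and leaned the same way, with Gal at 2.59 and 1.07 CPM in the mutants and 6.47 CPM in the control. Ifitm1, an interferon-inducible membrane protein, had 8.28 and 4.55 CPM in the mutants and 16.7 CPM in the control (log2 fold -1.46, edgeR adjusted p = 0.0199). Gm12146, an antisense gene, had 11.4 and 11.4 CPM in the mutants and 28.6 CPM in the control (log2 fold -1.38, edgeR adjusted p = 0.0112). The sources used here do not give whether counting used strand, so its reads cannot be told from those of its partner. Phlda1 had 13.2 and 13.4 CPM in the mutants and 34.4 CPM in the control (log2 fold -1.42, edgeR adjusted p = 0.00488). Xist fell to 29.3 and 21.8 CPM in the mutants, against 86.7 CPM in the control, beside the shares of cells with Xist given above. With only cells that had a Y-linked UMI and no Xist, a comparison added after the data were seen, 38 genes were called, 27 of the 30 among them.

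A number of these calls rested on a handful of cells. Of the 19 genes that fell, 9 had at least 50% of the control's UMIs in 5 cells: Proc, Mgat4e, Nexmif, Acta2, Grm8, Flt3, 2610528A11Rik, Skap1 and Gm13842. Proc, the anticoagulant protein C, had its 14.5 CPM of the control in 3 cells. Flt3, a receptor of blood progenitors, had its 9.90 CPM of the control in 6 cells. Of the 11 that rose, Hbb-bt and Nrg1 were so concentrated in the mutants. Gm10036, with 7.44 and 9.49 CPM in the mutants and 71.5 CPM in the control, shares 59.0% of its last words with other genes and is uncertain. Among cells with 0 UMIs of Gata4 and Gata6, 17 genes were called, and 5 of the 30 kept their call: Tbx15, Gm10036, Nexmif, Grm8 and Xist. That setting left 90 and 166 mutant cells and 127 control cells, and 9 of the 30, Hand1 and Acta2 among them, fell under the limit on counts there.

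Most pathway lists moved little. Of 16 Meis, Pbx and proximal factors tested, 13 had positive log2 folds and the median was 0.26. Over all genes tested that the gates had not read, 4982 of 10134 were positive and the median was -0.00. The 1 factor called, Shox2, rose, and it was found more often in Lhx-high than in Lhx-low cells of every library. Of 13 retinoic acid genes none was called, 6 were positive and the median was -0.00. Rarb, a retinoic acid receptor that is itself a target of the pathway, had 256 and 223 CPM in the mutants and 150 CPM in the control (log2 fold 0.61, edgeR adjusted p = 1). The degrading enzyme Cyp26b1 was too low to test in Lhx-low cells, at 0.960 and 1.25 CPM in the mutants and 1.69 CPM in the control. In Lhx-high cells it had 9.78 and 13.8 CPM in the mutants and 3.74 CPM in the control, and no comparison of the effects is made at such a level.

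Of 12 HoxA and HoxD genes 1 rose (Hoxd10), 9 were positive and the median was 0.33. Of 14 HoxB and HoxC genes 1 fell (Hoxb1), 3 were positive and the median was -0.07. Of 17 BMP genes 1 fell (Msx2), 6 were positive and the median was -0.21. That median was 0.11 in mutant 1 and -0.41 in mutant 2. No member was called of the lists for FGF signalling (11 of 15 positive, median 0.14), WNT signalling (13 of 26, -0.02), Hedgehog signalling (7 of 9, 0.25) and guidance and neurite growth (23 of 29, 0.23). In each of these lists the member with the largest fold missed the test. For FGF it was Fgf9, a ligand, with 4.2 and 2.51 CPM in the mutants and 8.52 CPM in the control (log2 fold -1.43, edgeR adjusted p = 0.165). For WNT it was Nkd1, a target and inhibitor of the pathway, with 57.1 and 28.6 CPM in the mutants and 96.8 CPM in the control (-1.25, edgeR adjusted p = 0.115). For Hedgehog it was Ptch1, the receptor and target, with 58.5 and 55.8 CPM in the mutants and 25.7 CPM in the control (1.09, edgeR adjusted p = 0.429). For guidance it was Ntn1, the netrin-1 ligand of Unc5c, with 16.4 and 11.9 CPM in the mutants and 5.22 CPM in the control (1.37, edgeR adjusted p = 0.115). Both mutants lay on the same side of the control for all 4 genes.

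Lists tied to the loss of Esco2 held no call. Of 33 p53 targets that the gates had not read, 0 were called and 0 had an unadjusted p under 0.05, 19 were positive and the median was 0.01, in cells already chosen for few p53-responsive genes. Without that condition on cells, 58 genes that the gates had not read were called, 37 of them higher in the mutants and 21 lower. The cohesin list (13 of 22 positive, median 0.01), DNA damage and repair (21 of 42, 0.00) and S phase genes (13 of 40, -0.06) lay near the median of all genes. Of 50 genes of G2 and mitosis 37 were positive, with a median of 0.10. Of 74 cytosolic ribosomal protein genes 1 was positive, with a median of -0.16, but the median was -0.37 in mutant 1 and 0.02 in mutant 2. Glycolysis genes were likewise uneven, at 0.18 in mutant 1 and -0.56 in mutant 2. The medians of the mutants also had opposite signs for the retinoic acid, HoxB and HoxC, BMP and WNT lists. The same held for the cohesin, S phase, and G2 and mitosis lists. Among the lists given next, it held for limb field, TGF-beta and Notch, caspase and BCL2, immediate early and imprinted genes.

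The other lists held 2 calls, both of them given above: Shox2 among the 14 genes of skeletal fate (11 positive, median 0.13) and Msx2 among the 14 distal outgrowth genes (10 positive, 0.09). Osr1, a zinc-finger factor of the skeletal list, had 4.32 and 10.4 CPM in the mutants and 2.84 CPM in the control (log2 fold 1.35, edgeR adjusted p = 0.4). None was called among the 16 anterior-posterior factors (11 positive, median 0.16), the 10 limb field genes (5 positive, -0.01) or the 31 collagen and matrix genes (18 positive, 0.09). In the limb field list Tbx18, a T-box factor, had 5.16 and 8.08 CPM in the mutants and 2.38 CPM in the control (log2 fold 1.44, edgeR adjusted p = 0.362). None was called of 12 TGF-beta and Notch genes (10 positive, 0.20), 14 vessel signals (12 positive, 0.23) or 24 caspase and BCL2 family genes (11 positive, -0.00). The same held for 18 immediate early genes (13 positive, 0.15), 22 genes of the integrated stress response (4 positive, -0.18) and 24 imprinted growth genes (14 positive, 0.12). Phlda2, a maternally expressed gene that limits placental growth, had 7.80 and 5.02 CPM in the mutants and 15.3 CPM in the control (log2 fold -1.33, edgeR adjusted p = 0.0816). Both mutants lay on 1 side of the control for Osr1, Tbx18 and Phlda2, and none of them passed the test. The second-largest fold of each list was at most 1.35 in size, and none outside the calls passed the test.

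Whether the mutant effect differed between Lhx-low and Lhx-high cells was tested as an interaction over 6 sums, with a term for each library. It called 110 of 10059 genes (1.09%), 50 with a higher effect in Lhx-low cells (0.497%) and 60 with a lower one (0.596%). The number was sensitive to scaling: with DESeq2's size factors 31 genes were called, and all 31 were among the 110. With the prior held at 4 degrees of freedom 1 gene was called and 399 had an unadjusted p under 0.05, and with the Lhx limit at 0.5 CP10K 2 genes were called. The median over all genes was -0.02 with the TMM factors used and -0.00 with those of DESeq2, so small differences carry that shift. Of the 110, 19 averaged under 5 CPM in 1 of the 2 kinds of cell, 6 in Lhx-low and 13 in Lhx-high cells, a level below the limit of the first comparison. Robo2, a receptor for Slit, had 116 and 80.7 CPM in the Lhx-low cells of the mutants and 135 CPM in those of the control, but 58.6 and 43.8 CPM in mutant Lhx-high cells and 29.4 CPM in control ones. The difference of the effects was -1.27 (SE 0.11, edgeR adjusted p = 1.37e-07). Both mutants thus lay below the control in Lhx-low cells and above it in Lhx-high cells. Plxna4, a semaphorin receptor, had 142 and 74.1 CPM in the mutants and 161 CPM in the control among Lhx-low cells (difference -0.88, edgeR adjusted p = 6.64e-05). Its levels in Lhx-high cells were 38.7 and 21.9 CPM in the mutants and 24.8 CPM in the control, on both sides of the control.

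Hand1 and Acta2, called in Lhx-low cells, were under 1.5 CPM in all Lhx-high sums, so no comparison of their effects is made. Ntng1 had a higher mutant effect in Lhx-low cells, by 1.69 (edgeR adjusted p = 1.1e-06). Among the markers, Unc5c had a higher mutant effect in Lhx-low cells, by 0.65 (SE 0.15, edgeR adjusted p = 0.0261). Its Lhx-low levels, 808 and 513 CPM in the mutants, lay on both sides of the 647 CPM of the control, whereas its Lhx-high levels were 290 and 135 CPM in the mutants and 311 CPM in the control. For Shox2 (0.73, edgeR adjusted p = 0.729) and Msx2 (-0.99, edgeR adjusted p = 0.136) a difference between Lhx-low and Lhx-high cells was not shown.

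**Figure D5:**
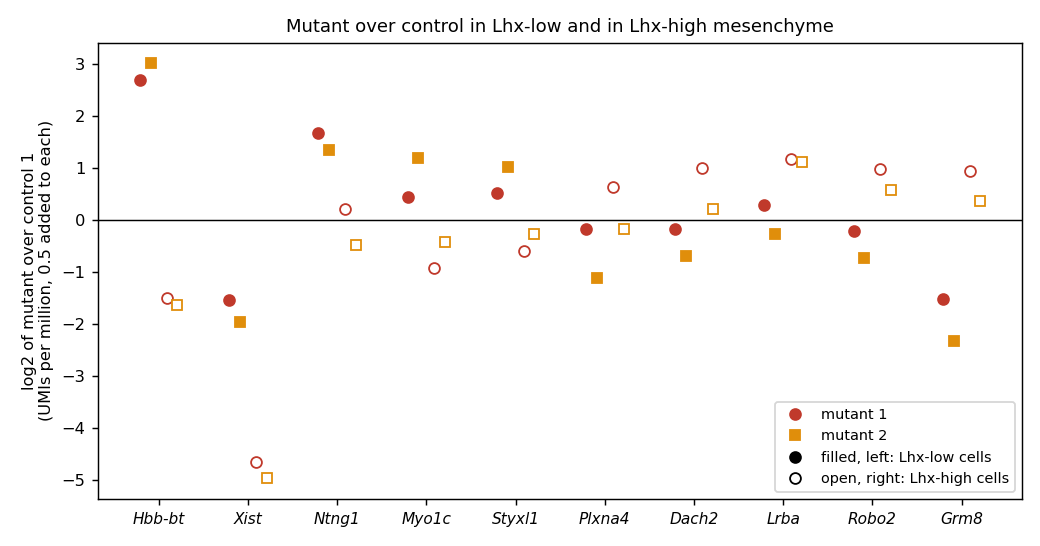
Log2 ratio of each mutant library over the control (0.5 CPM added), in Lhx-low cells (filled) and Lhx-high cells (open), for the 5 genes with the lowest p of the interaction test in each direction. Robo2 is negative in Lhx-low cells and positive in Lhx-high cells, a difference of -1.27.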

How the data were processed

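The deposited matrices are unnormalised counts: UMIs for each barcode over 31053 Ensembl genes plus a feature for CRE. Cell Ranger 7.0.0 made them, per the file headers. The submitters' processing notes name the build mm10 and Seurat 4.0.0. The protocol in the labels describes trypsin release, freezing, thawing, pooling and 3′ v3 chemistry, in which reads mark the 3′ end and gene length is not measured. No normalisation had been applied by the authors. From these counts, CPM and CP10K were computed with all UMIs as the total.

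UMIs of the Lhx-low cells were summed per library and tested with edgeR 4.0.16 (R 4.3.3): TMM factors, quasi-likelihood F test, a mean of 5 CPM or more, Benjamini-Hochberg adjustment over all genes tested, called under 0.05. The interaction fit used 6 sums with a term for each library. Its 1 residual degree of freedom, like that of the first fit, comes from the mutant pair. A standard error is the log2 fold divided by the square root of F. Cells were not used as replicates. The 20 genes that the gates read, 6 of them tested, stayed in the fits and are given no call. Intervals are exact Clopper-Pearson at 95% and cover counting error only. Cells were thinned to 5000 UMIs for detection shares, which left out 2, 4 and 8 shallower cells of mutant 1, mutant 2 and the control. Erythroid cells were those with hemoglobin genes at 1000 CP10K or more. Both fits were tested on simulated data first. The simulated counts gave every gene the same spread, so they could not test the assumption of a shared spread.

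Called genes are named with the 12 highest and 12 lowest folds among those with both mutants on 1 side of the control, and with the 10 largest Lhx-low over Lhx-high ratios in each direction. The rule also took the 2 largest folds of each list, of which some are covered only by the count of their list. The cells, the 27 gene lists and the genes always named were chosen with earlier results of these data known. Promoter sequences came from RefSeq (GRCm38.p6). Word counts came from GENCODE transcripts, and gene positions from the GENCODE annotation of the same build. Alternatives numbered 44 chosen at the outset and 3 added after the data were seen. They covered limits on counts, size factors, DESeq2 1.42.0, the shared spread, each gate, doublets (Scrublet in scanpy 1.11.5, expected rate 0.06) and each mutant left out.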

Additional observations from a re-analysis of the deposited data

Results flagged for a closer look

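In 10 genes the mutant effect differed between Lhx-low and Lhx-high cells by edgeR's interaction test, taken as the lowest adjusted p in each direction; each value below is the log2 fold of mutant over control in Lhx-low cells minus that in Lhx-high cells. Grm8 and Hbb-bt averaged under 5 CPM in Lhx-high cells, below the limit of the first comparison, and their differences carry little weight. The value of Hbb-bt is also uncertain because of the words its transcript shares with other genes. Neither the reason for any of these differences nor the part of single cells in them was tested.

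A higher effect in Lhx-low cells was found for 5 genes. Hbb-bt differed by 4.91, with 17.6 and 22.1 CPM in the mutants and 2.30 CPM in the control among Lhx-low cells, and 2.48, 2.22 and 8.0 CPM among Lhx-high cells. Xist differed by 3.14, with 29.3 and 21.8 CPM in the mutants and 86.7 CPM in the control among Lhx-low cells, and 7.06, 5.56 and 190 CPM among Lhx-high cells, beside 2.11% and 2.12% of mutant and 22.0% of control Lhx-high cells with an Xist UMI. Ntng1 differed by 1.69, with 34.9 and 27.8 CPM against 10.7 CPM in Lhx-low cells and 130 and 79.5 CPM against 112 CPM in Lhx-high cells. Myo1c, an unconventional myosin, differed by 1.53, with 52.4 and 88.0 CPM against 38.3 CPM in Lhx-low cells and 35.6 and 50.9 CPM against 68.3 CPM in Lhx-high cells. In the control, 5 Lhx-low cells held 61.3% of its UMIs. Styxl1 differed by 1.21, with 97.4 and 137 CPM against 67.8 CPM in Lhx-low cells and 195 and 243 CPM against 295 CPM in Lhx-high cells.

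A lower effect was found for the other 5. Grm8, a metabotropic glutamate receptor, differed by -2.84, with 4.2 and 2.20 CPM against 13.1 CPM in Lhx-low cells and 5.49 and 3.53 CPM against 2.64 CPM in Lhx-high cells. Robo2 differed by -1.27 and Plxna4 by -0.88, at the levels given in the report. Lrba, a protein of vesicle traffic, differed by -1.16, with 81.3 and 55.1 CPM against 66.4 CPM in Lhx-low cells and 37.7 and 36.5 CPM against 16.5 CPM in Lhx-high cells. Dach2, an X-linked transcription cofactor, differed by -1.05, with 145 and 101 CPM against 165 CPM in Lhx-low cells and 94.1 and 54.2 CPM against 46.7 CPM in Lhx-high cells.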

How the results depend on the processing

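The 30 genes called between mutant and control became 102 with a limit of 1 CPM, 122 with none, 5 with DESeq2, 0 with the shared spread held at 4 degrees of freedom, 17 with 0 UMIs of Gata4 and Gata6, 63 without the p53 condition (58 of them not read by the gates) and 61 when cells were thinned before the gates. The other settings gave 24 to 41 calls. Of the 30, 30 kept their call at 1 CPM, 27 without the p53 condition and 18 when thinned. The 110 interaction calls became 242 at 1 CPM, 363 with no limit, 31 with DESeq2's size factors, 10 with DESeq2, 1 with the spread held (399 at an unadjusted p under 0.05), 251 without the p53 condition, 2 with Lhx2 and Lhx9 under 0.5 CP10K and 242 with them under 2 CP10K. The share difference of -2.86 percentage points became -3.40 with a lower and -2.29 with a higher limit on detected genes, -3.34 under 5% mitochondrial UMIs, -1.43 with 0 UMIs of Gata4 and Gata6, -1.55 without the p53 condition, -2.29 and -4.02 with the Lhx limit at 0.5 and 2 CP10K, -1.31 when thinned, and reversed to 0.098 with the limb gate at 5 CP10K. Thinning before the gates lowered the mean log2 ratio of Lhx-low over Lhx-high cells to 0.38 for Meis1, 0.62 for Meis2 and 1.09 for Ptn, against 0.54, 0.91 and 1.34.

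With 0 UMIs of Gata4 and Gata6 the log2 fold of mutant over control turned for Skap1 (1.40), Emx2 (-0.18) and Unc5c (0.34). It turned for Unc5c with UMIs in none of the 5 p53 genes (0.066), for Plk2 without the p53 condition (0.088) and for Fos when thinned (-0.57). F630040K05Rik ranged from -0.60 to 2.90 with 1 mutant left out, and the interaction of Hbb-bt fell to -0.0031 with the Lhx limit at 2 CP10K. The cause of these changes was not tested. No paired analysis was possible because the control library carries no replicate number. Genes under about 5 CPM could not be compared at this depth.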
